A study of Saccharomyces cerevisiae with 4 samples.

Results

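The 31 genes described here encode the subunits of RNA polymerases I, II and III of the budding yeast Saccharomyces cerevisiae. They were picked by gene symbol from the 6211 open reading frames of the deposited value table, through a match of the table's names to the R64 gene table. The rule used no measured value, but earlier results of these data were known when the members were chosen. All 31 had a value on every array. By enzyme, 7 belong to RNA polymerase I only, 7 to RNA polymerase II only and 10 to RNA polymerase III only, 2 are shared by polymerases I and III, and 5 are shared by all 3 enzymes.

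RNA polymerase I copies the ribosomal DNA into the large ribosomal RNA precursor, RNA polymerase II makes messenger RNA, and RNA polymerase III makes transfer RNA and the 5S ribosomal RNA. In growing yeast most RNA synthesis serves ribosomes, and the genes for the subunits of polymerases I and III are known to be transcribed together with the ribosome assembly genes and to be lowered when nutrients run short. Gcn2 is the protein kinase that senses uncharged transfer RNA, slows translation initiation by phosphorylating eIF2, and promotes translation of the activator Gcn4.

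A strain labelled GCN2c was compared with a wild type on 4 arrays with 2 colours, each carrying cDNA of both strains. Both strains grew in YPD, a rich medium, at 28 °C to an absorbance of 0.6, and the labels name no drug, starvation or DNA damage for either. The design text calls GCN2c an overexpressing strain and the sample labels call it a mutant, and neither gives its promoter, allele, mating type or number of clones. GCN2c cDNA carried Cy5 on replicates 1 and 3 and Cy3 on replicates 2 and 4. Replicates 2 and 4, which the design text counts as separate biological replicates, differed by 0.003 to 0.015 log2 in size over the subunit genes (median 0.004). They were averaged and counted as 1 sample, called here the Cy3 hybridisation, so that n = 3 throughout, 2 with GCN2c in Cy5 and 1 in Cy3. The small number of arrays limits the precision.

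Values are deposited log ratios, taken as log2 and read as GCN2c over wild type, so that a positive value means more of the mRNA in the strain labelled GCN2c. Neither the base nor the direction is stated. The direction used here is an assumption. GCN2c was in Cy5 on 2 of the 3 replicates and the sample titles read WT vs GCN2, and neither settles which strain is the numerator. Ratios of opposite dye orientation correlated at a median Pearson r of 0.237 across all genes, so they were taken as already turned to one direction. If the ratios ran the other way, each statement of higher or lower here would be exchanged. GCN2 itself stood at -0.39 on replicate 1, 0.10 on replicate 3 and -0.68 in the Cy3 hybridisation (mean -0.33 ± 0.39, SD, n = 3; limma adjusted p = 0.453), so the spot of GCN2 does not check the strain label. Each array compared RNA of a whole culture, so fewer cells in one state and less RNA per cell cannot be told apart.

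Markers of yeast mating type did not behave alike on the 3 replicates. Among 4 genes specific to alpha cells, the pheromone gene MF(ALPHA)1 stood at -0.92 on replicate 1, -1.42 on replicate 3 and 4.93 in the Cy3 hybridisation. MF(ALPHA)2 stood at -0.77, -0.10 and 1.69 in the same order, the pheromone receptor gene STE3 at 0.17 on replicate 1 and 3.76 in the Cy3 hybridisation with no value on replicate 3, and the agglutinin gene SAG1 at 0.03, -0.84 and 0.07. All 6 genes specific to a cells had a negative mean, from -1.09 for the pheromone gene MFA2 to -0.21 for BAR1, and none of the 10 markers passed limma at an adjusted p of 0.05 (2 of them, MFA2 and STE2, at an unadjusted p under 0.05). With a dye term MFA2 passed as lower, and MF(ALPHA)1 and STE3 passed as higher. STE3 had no value on replicate 3, so its call with a dye term rests on the spread of other genes alone. Without replicates 2 and 4 MFA2 and MF(ALPHA)1 passed, both as lower. The direction of the MF(ALPHA)1 call thus turned with the Cy3 hybridisation. The Cy3 hybridisation therefore stands apart at 3 of 4 alpha markers, and the part of this in the subunit values was not tested.

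None of the 31 subunit genes passed the test over all genes in either direction. Over the whole table, 2.06% of 6130 genes passed limma at a Benjamini-Hochberg adjusted p of 0.05 (1.73% higher and 0.326% lower), and the smallest adjusted p among the subunit genes was 0.110, for RPA43. At an unadjusted p under 0.05, 8 subunit genes were lower and 1 was higher, where 10.7% of all genes tested were lower and 10.0% higher. One-class SAM, the test that the design text names, called 3.44% of genes with 3 values and no subunit gene. The limma 95% interval of a mean log2 ratio had a median half-width of 0.56 over the subunit genes, and for 21 of the 31 it lay inside -1 to 1, which leaves out a doubling or a halving.

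The subunit genes lay mostly below 0, by small amounts. Their mean log2 ratios ran from -0.85 to 0.74 with a median of -0.26, beside a median of -0.06 over all genes tested. The ratio was negative for 25 of 31 subunit genes, against 55.9% of all genes, and 14 of the 31 were negative on every replicate, against 28.1% of genes with 3 values. A single subunit gene, RPA190, was positive on every replicate, where 18.5% of all genes were. The median subunit gene stood at -0.19 on replicate 1, -0.21 on replicate 3 and -0.48 in the Cy3 hybridisation. All 3 medians were below those of all genes on the same arrays, which were -0.03, -0.05 and -0.09.

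**Figure D1:**
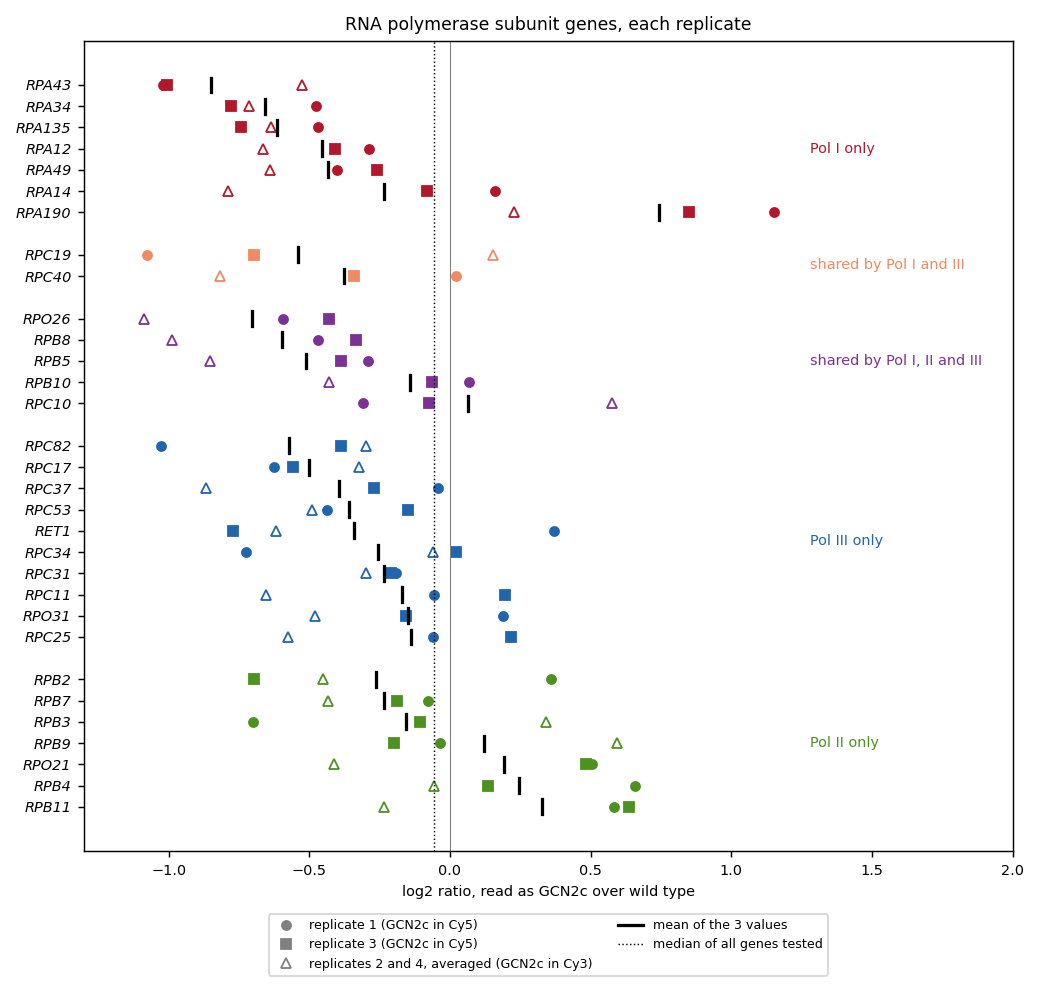
Log2 ratio (horizontal axis, read as GCN2c over wild type) of each of the 31 subunit genes, grouped by the enzyme they belong to. Filled circles and squares are replicates 1 and 3, open triangles are replicates 2 and 4 averaged, black bars are the means of the 3 values, and the dotted line is the median of all 6130 genes tested. RPA190 is the one gene with all 3 values above 0, and 14 genes have all 3 below 0.

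RNA polymerase I showed the widest split between its subunits. Of its 7 specific genes, 6 had negative means and 1, RPA190, a positive one, with a class median of -0.40 on replicate 1, -0.41 on replicate 3 and -0.64 in the Cy3 hybridisation. RPA190 encodes the largest subunit, which with the second-largest one forms the active centre. Its log2 ratio was 1.15 on replicate 1, 0.85 on replicate 3 and 0.23 in the Cy3 hybridisation, all above 0, with the lowest value where GCN2c was in Cy3. The mean was 0.74 ± 0.47 (SD, n = 3; limma unadjusted p = 0.0238, adjusted p = 0.180), or 1.67-fold, with a 95% interval of 0.14 to 1.34. It ranked 460th from the highest of 6130 genes.

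RPA135, which encodes the second-largest subunit and the partner of Rpa190 in the active centre, lay on the other side of 0. It stood at -0.47, -0.74 and -0.64 on replicate 1, on replicate 3 and in the Cy3 hybridisation (mean -0.62 ± 0.14, SD, n = 3; limma unadjusted p = 0.0161, adjusted p = 0.156). The difference of RPA190 over RPA135 was 1.62, 1.59 and 0.86 log2 on the same arrays, a mean of 1.36 ± 0.43, positive on 3 of 3 replicates. An exact two-sided sign-flip test gave p = 0.25, the smallest that this test allows with 3 replicates, so the test could not pass at this n. These differences compare ratios and not the levels of the genes.

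RPA43 was the lowest of all 31 subunit genes. It encodes the stalk subunit through which polymerase I meets the initiation factor Rrn3. The log2 ratio of RPA43 was -1.02 on replicate 1, -1.01 on replicate 3 and -0.53 in the Cy3 hybridisation, all below 0. The mean was -0.85 ± 0.28 (SD, n = 3; limma unadjusted p = 0.00655, adjusted p = 0.110), or 0.555 of wild type, with a 95% interval of -1.35 to -0.35. Its partner in the stalk, RPA14, overlapped 0, at 0.16, -0.08 and -0.79 (mean -0.24 ± 0.49, adjusted p = 0.630). RPA43 minus RPA14 was -1.18, -0.93 and 0.26 on the 3 replicates, so the order of this pair turned in the Cy3 hybridisation (exact sign-flip p = 0.5).

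RPA43 and RPA190, the lowest and the highest of the subunit genes, are next to each other on their chromosome and read away from each other, as the R64 gene table and the strand letters of YOR340C and YOR341W show. No other pair of the 31 genes are neighbours. RPA190 exceeded RPA43 by 2.17 on replicate 1, 1.86 on replicate 3 and 0.75 in the Cy3 hybridisation, a mean difference of 1.59 ± 0.74 log2 (exact sign-flip p = 0.25, the smallest possible). Over 1298 such divergent neighbours with 3 values each, the median difference in size was 0.36, and 44 pairs (3.39%) differed by as much or more. This pair was singled out after its values were seen, so the share is a description.

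The remaining 3 polymerase I subunit genes were negative on every replicate. RPA34 and RPA49 encode a pair that is built like the polymerase II factor TFIIF and aids initiation and elongation. RPA34 stood at -0.48, -0.78 and -0.71 on replicate 1, on replicate 3 and in the Cy3 hybridisation (mean -0.66 ± 0.16, SD, n = 3; limma unadjusted p = 0.0131, adjusted p = 0.144). RPA49 stood at -0.40, -0.26 and -0.64 (mean -0.43 ± 0.19, adjusted p = 0.266). RPA12, whose product takes part in RNA cleavage and termination, was at -0.29, -0.41 and -0.67 (mean -0.45 ± 0.19, adjusted p = 0.247). For RPA34, RPA135, RPA12 and RPA49 the SD between replicates was 0.14 to 0.19, below the median SD of 0.33 over all genes. The median SD over all subunit genes was higher, at 0.40. Within polymerase I, RPA43 had an SD of 0.28, RPA190 of 0.47 and RPA14 of 0.49. An SD as low was also seen outside polymerase I, at RPC31, RPC17, RPC53 and RPB7 (0.06 to 0.18).

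**Figure D2:**
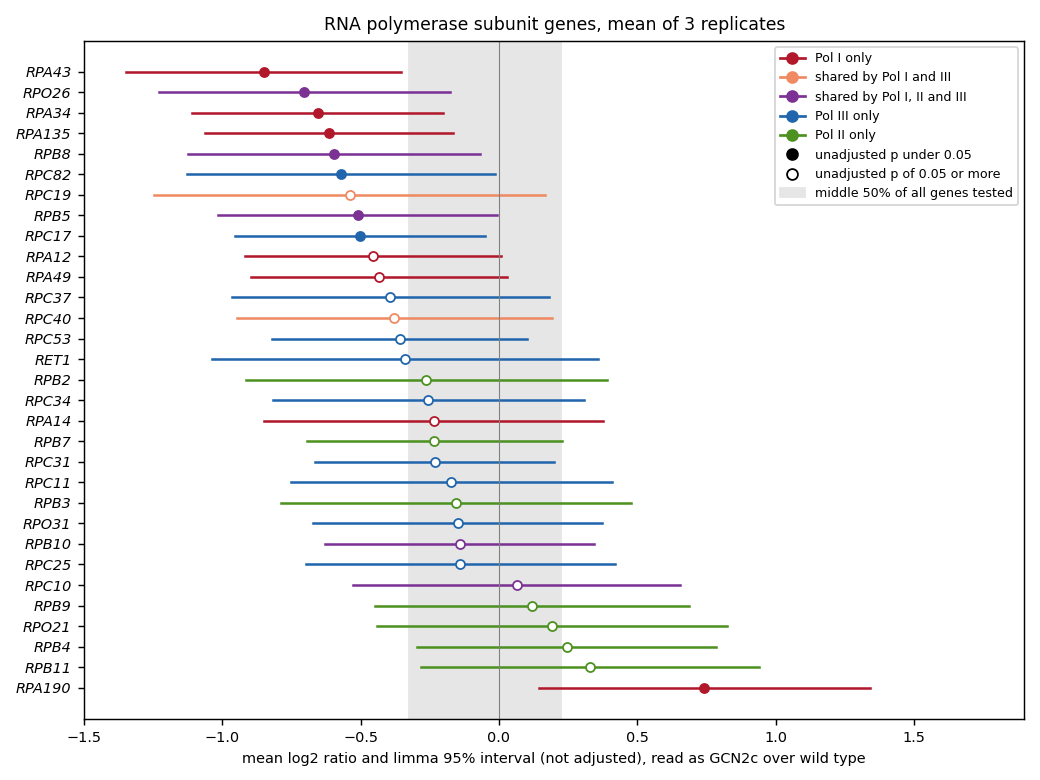
Mean log2 ratio of each subunit gene over 3 replicates (points, horizontal axis, read as GCN2c over wild type) with its limma 95% interval (lines, not adjusted for the number of genes), in order of the mean. Filled points have an unadjusted p under 0.05, and the grey band holds the middle 50% of all genes tested. The 8 filled points on the left and RPA190 on the right have intervals that leave out 0, and none of the 31 passed after adjustment.

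Of the 5 genes shared by all 3 polymerases, RPO26, RPB8 and RPB5 were negative on every replicate. RPO26 encodes the common subunit also called Rpb6, which helps the largest subunit to assemble. It stood at -0.59 on replicate 1, -0.43 on replicate 3 and -1.09 in the Cy3 hybridisation (mean -0.70 ± 0.34, SD, n = 3; limma unadjusted p = 0.0179, adjusted p = 0.163). RPB8 was at -0.47, -0.33 and -0.99 (mean -0.60 ± 0.35, unadjusted p = 0.0334, adjusted p = 0.204). RPB5, part of the jaw that grips incoming DNA, was at -0.29, -0.39 and -0.85 (mean -0.51 ± 0.30, unadjusted p = 0.0483, adjusted p = 0.239). All 3 genes were lowest in the Cy3 hybridisation.

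The remaining common subunits, RPB10 and RPC10, are small zinc-binding proteins of the core. RPB10 overlapped 0, at 0.07, -0.06 and -0.43 (mean -0.14 ± 0.26, SD, n = 3; limma adjusted p = 0.725). RPC10, also called RPB12, went the other way between dye orientations, at -0.31 and -0.08 on replicates 1 and 3 and 0.58 in the Cy3 hybridisation (mean 0.06 ± 0.46, adjusted p = 0.910). It was the one common subunit gene with a positive mean.

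RPC40 and RPC19 encode the pair on which polymerases I and III are assembled, related to the alpha subunits of the bacterial enzyme. RPC19 stood at -1.08 on replicate 1, -0.70 on replicate 3 and 0.15 in the Cy3 hybridisation (mean -0.54 ± 0.63, SD, n = 3; limma adjusted p = 0.339). RPC40 stood at 0.02, -0.34 and -0.82 in the same order (mean -0.38 ± 0.42, adjusted p = 0.397). The order of these partners differed between dye orientations: RPC19 was the lower one on replicates 1 and 3, and RPC40 in the Cy3 hybridisation.

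All 10 genes specific to RNA polymerase III had a negative mean, from -0.57 to -0.14, and 5 were negative on every replicate. The class median was -0.13 on replicate 1, -0.18 on replicate 3 and -0.48 in the Cy3 hybridisation. RPC82, RPC34 and RPC31 encode a trimer found in this enzyme alone, which helps to open the promoter and meets the initiation factor Brf1. RPC82 was the lowest of the class, at -1.03, -0.39 and -0.30 (mean -0.57 ± 0.40, SD, n = 3; limma unadjusted p = 0.0461, adjusted p = 0.234). RPC31 was the steadiest of all 31 subunit genes, at -0.19, -0.21 and -0.30 (mean -0.23 ± 0.06, adjusted p = 0.488). RPC34 overlapped 0, at -0.73, 0.02 and -0.06 (mean -0.26 ± 0.41, adjusted p = 0.563).

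The stalk genes of polymerase III did not keep one order over the replicates. RPC17 was negative throughout, at -0.63, -0.56 and -0.32 (mean -0.50 ± 0.16, SD, n = 3; limma unadjusted p = 0.0353, adjusted p = 0.209). RPC25 stood at -0.06, 0.22 and -0.58 (mean -0.14 ± 0.40, adjusted p = 0.767). RPC25 minus RPC17 was 0.57, 0.78 and -0.25 on the 3 replicates (exact sign-flip p = 0.5), so the difference did not hold across them.

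RPC53 and RPC37, the TFIIF-like pair of polymerase III, were negative on every replicate. RPC53 stood at -0.44, -0.15 and -0.49 (mean -0.36 ± 0.18, SD, n = 3; limma adjusted p = 0.331) and RPC37 at -0.04, -0.27 and -0.87 (mean -0.39 ± 0.43, adjusted p = 0.383). With RPA34 and RPA49, all 4 subunit genes of this structural kind were below 0 on every replicate. Of all 31 subunit genes 14 were, and of genes with 3 values 28.1%. By other roles, it was 3 of 6 stalk genes, 3 of 5 common subunit genes and 2 of 3 trimer genes. It was 1 of 3 second-largest subunit genes and 1 of RPA12, RPC11 and RPB9. No largest subunit gene and no assembly pair gene was below 0 throughout. RPC11, which cleaves RNA and is needed for termination and reinitiation, overlapped 0, at -0.06, 0.20 and -0.65 (mean -0.17 ± 0.44, adjusted p = 0.720).

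The catalytic subunit genes of polymerase III did not keep 1 sign over the replicates. RPO31, the largest subunit gene, stood at 0.19, -0.16 and -0.48 (mean -0.15 ± 0.33, SD, n = 3; limma adjusted p = 0.731). RET1, the second-largest subunit gene, stood at 0.37, -0.77 and -0.62 (mean -0.34 ± 0.62, adjusted p = 0.532), with the replicates of one dye orientation on opposite sides of 0. RPO31 minus RET1 was -0.18, 0.61 and 0.14, a mean of 0.19 ± 0.40 (exact sign-flip p = 0.75).

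The 7 genes specific to RNA polymerase II lay on both sides of 0, with a class median of 0.36 on replicate 1, -0.11 on replicate 3 and -0.24 in the Cy3 hybridisation. Their means ran from -0.26 to 0.33 with a median of 0.12, 3 below 0 and 4 above, and none had an unadjusted p under 0.05. That median of means was 0.039 without replicate 1, 0.045 without replicate 3 and -0.12 without replicates 2 and 4. RPO21 encodes the largest subunit, whose repeated tail is phosphorylated during transcription. It stood at 0.50 on replicate 1, 0.48 on replicate 3 and -0.41 in the Cy3 hybridisation (mean 0.19 ± 0.52, SD, n = 3; limma adjusted p = 0.715). RPB2, the second-largest subunit gene, stood at 0.36, -0.70 and -0.45 (mean -0.26 ± 0.55, adjusted p = 0.611). RPO21 minus RPB2 was 0.14, 1.18 and 0.04, positive on 3 of 3 replicates (mean 0.45 ± 0.63, exact sign-flip p = 0.25, the smallest possible).

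RPB3 and RPB11 encode the assembly pair of polymerase II, the counterparts of Rpc40 and Rpc19. RPB11 stood at 0.58, 0.64 and -0.24 (mean 0.33 ± 0.49, SD, n = 3; limma adjusted p = 0.489) and RPB3 at -0.70, -0.11 and 0.34 (mean -0.16 ± 0.52, adjusted p = 0.771). These partners took opposite signs on all 3 replicates, and each changed sign between dye orientations. RPB4 and RPB7 form the stalk, which can leave the enzyme and also acts in mRNA decay. RPB4 was at 0.66, 0.14 and -0.06 (mean 0.24 ± 0.37, adjusted p = 0.565) and RPB7 at -0.08, -0.19 and -0.43 (mean -0.23 ± 0.18, adjusted p = 0.513).

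Within the stalk, RPB7 lay below RPB4 by 0.73, 0.32 and 0.38 log2 on the 3 replicates, which is a mean RPB7 minus RPB4 difference of -0.48 ± 0.22 (exact sign-flip p = 0.25, the smallest possible). RPB9, whose product guards transcription accuracy, was at -0.04, -0.20 and 0.59 (mean 0.12 ± 0.42, limma adjusted p = 0.809). RPB7 was the one gene of the class with 1 sign on every replicate.

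Set against each other on the same array, the medians of the classes specific to 1 enzyme kept 1 order on every replicate, with polymerase I below III and III below II. The 2 shared classes changed place. Genes shared by I and III had medians of -0.53, -0.52 and -0.33, the lowest class on replicates 1 and 3 alone. Genes shared by all 3 enzymes had -0.31, -0.33 and -0.85, the lowest class in the Cy3 hybridisation alone. The polymerase II median exceeded that of polymerase I by 0.76 on replicate 1, 0.30 on replicate 3 and 0.41 in the Cy3 hybridisation (mean 0.49 ± 0.24, SD, n = 3). It exceeded that of polymerase III by 0.49, 0.08 and 0.25 (mean 0.27 ± 0.20). Polymerase III exceeded polymerase I by 0.28, 0.23 and 0.16 (mean 0.22 ± 0.06). If the Cy3 hybridisation were turned, its order would be the reverse. Genes of a class are not replicates, and no p-value is given for these medians.

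**Figure D3:**
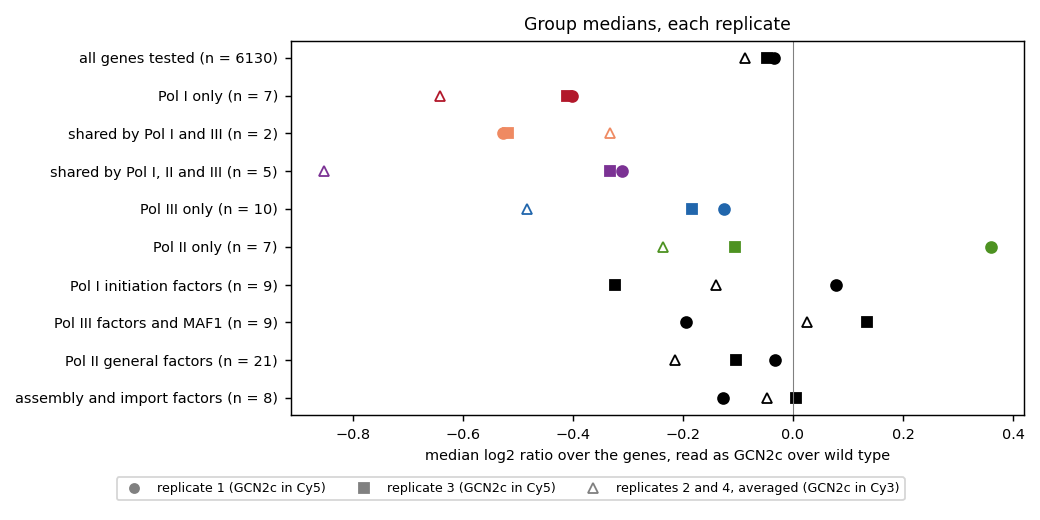
Median log2 ratio (horizontal axis, read as GCN2c over wild type) over the genes of each class on replicate 1 (circles), replicate 3 (squares) and replicates 2 and 4 averaged (triangles), with all genes tested at the top and the lists of transcription factors below. The medians of the polymerase I class lie at -0.40, -0.41 and -0.64, and those of the polymerase II class on both sides of 0.

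In many subunit genes the Cy3 hybridisation stood apart from replicates 1 and 3. Replicates 1 and 3, with GCN2c in Cy5, gave the same sign for 22 of 31 genes and correlated at Pearson r = 0.63 and Spearman rho = 0.49 across the subunit genes. The Cy3 hybridisation and replicate 1 had a correlation of r = 0.06 and rho = 0.06, and with replicate 3 it was r = 0.31 and rho = 0.40. Across all genes, replicates 1 and 3 correlated at r = 0.45. Replicates 2 and 4 each correlated there at r = 0.18 with replicate 1 and r = 0.29 with replicate 3. The weaker correlation between dye orientations was thus not particular to the subunit genes. These points share arrays and are genes and not replicates, so the correlations are descriptions. The ratio in the Cy3 hybridisation was below the mean of replicates 1 and 3 for 23 of 31 subunit genes, where 58.5% of all genes were, with a median shift of -0.32 against -0.13 over all genes. RPO21, RPB11 and RPB4 were positive on replicates 1 and 3 and negative in the Cy3 hybridisation, and RPB3, RPB9, RPC10 and RPC19 the reverse. With a single hybridisation of the second orientation, dye and culture cannot be told apart.

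**Figure D4:**
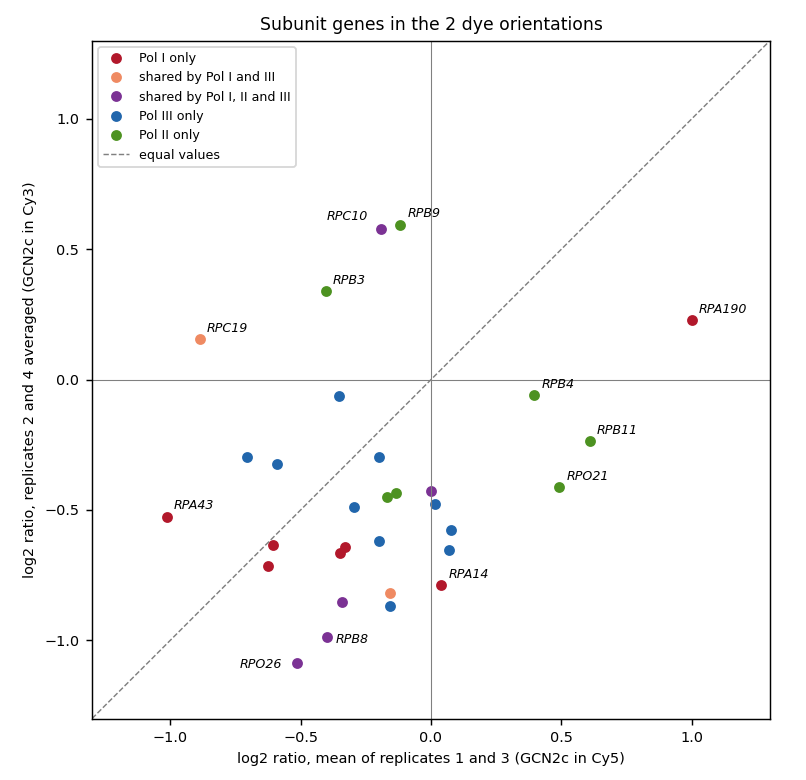
Each of the 31 subunit genes by its mean log2 ratio on replicates 1 and 3, with GCN2c in Cy5 (horizontal axis), and its log2 ratio on replicates 2 and 4 averaged, with GCN2c in Cy3 (vertical axis), both read as GCN2c over wild type. Points on the dashed line have equal values, and 23 of 31 lie below it. RPA190 is the one gene in the upper right, and RPO21, RPB11 and RPB4 lie in the lower right.

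Replicates 1 and 3 without the other orientation moved 2 of the 31 subunit genes past the threshold, both of polymerase I and in opposite directions. RPA190 then had a log2 ratio of 1.00 (limma adjusted p = 0.0488) and RPA43 one of -1.01 (adjusted p = 0.0429), in a fit where 5.89% of genes passed. The share of subunit genes called was near that of all genes. Both arrays of this fit had GCN2c in Cy5, so strain and dye cannot be told apart in it. With a dye term, where 10.6% of genes passed, RPA43 was at -0.77 (adjusted p = 0.0422) and RPO26 at -0.80 (adjusted p = 0.0419). The spread in the fit with a dye term is that between replicates 1 and 3 alone. With the 4 columns counted as 4 replicates, which takes 1 hybridisation for 2, 17.3% of genes passed and 8 subunit genes were among the lower ones. All 3 fits therefore call more of the whole table as well. In the fit with a dye term, subunit genes were called less often than all genes.

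Lists of the factors that bring the polymerases to their genes had medians nearer 0 than the -0.26 over all subunit genes. The exception was SPT15, a list of a single gene, at -0.28. The median of the polymerase II general factors, -0.11, was about as far from 0 as that of its specific subunit genes, 0.12, on the other side. The 9 polymerase I initiation factor genes had a median of -0.07, none passed limma and none had an unadjusted p under 0.05. RRN6, of the core factor, stood at -0.39 (adjusted p = 0.314), and RRN3, whose product bridges Rpa43 to the promoter, at -0.27, -0.49 and -0.32 on the 3 replicates (mean -0.36 ± 0.11, SD, n = 3; adjusted p = 0.315). Of 9 genes for polymerase III factors and its repressor Maf1, with a median of 0.06, none passed limma. TFC8, of the assembly factor TFIIIC, stood at -0.46, -0.40 and -0.70 (mean -0.52 ± 0.16, unadjusted p = 0.0320, adjusted p = 0.200) and TFC3, of the same factor, at 0.39 (adjusted p = 0.338).

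The 21 general factor genes of polymerase II had a median of -0.11, and none passed limma or had an unadjusted p under 0.05. SPT4, an elongation factor gene, stood at -0.05, -1.72 and -0.48 (mean -0.75 ± 0.87, SD, n = 3; limma adjusted p = 0.301), a mean that leans on replicate 3, and CCL1, the cyclin gene of TFIIH, at -0.37 (adjusted p = 0.362). SPT15, which encodes the TATA-binding protein used by all 3 enzymes, was at -0.28 (adjusted p = 0.492). Among 8 genes for assembly and nuclear import of the polymerases the median was -0.05 and none passed, with the GTPase gene GPN3 at 0.46 (adjusted p = 0.342) and BUD27, of assembly, at -0.34 (adjusted p = 0.379).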

How the data were processed

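RNA from the strains labelled GCN2c and wild type was hybridised to 4 arrays with 2 colours. The log2 ratios were made and deposited by the authors. Per the labels' protocols, they flagged spots with defects or too dim in either channel (under 2 times local background). Normalization, scanner, log base and direction are not given in the sources used here. The deposited medians were -0.03, -0.09, -0.05 and -0.09 on replicates 1 to 4, over 6177, 6137, 6057 and 6138 genes, and no further centring was applied. Each array held 1 to 6 values beyond 16 in size, which are implausible and were kept, none of them at a subunit gene.

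Replicates 2 and 4 were averaged (SD of their differences 0.0638 over 6136 genes, against 0.852 between replicates 1 and 3). The p-values measure the spread between 3 hybridisations. Names were matched to R64 locus tags, ignoring case (5662 of 6211). The 6130 genes with values on at least 3 arrays were tested against 0 in a model with 1 intercept and moderated variances (limma 3.58.1, R 4.3.3), two-sided, with Benjamini-Hochberg adjustment and a threshold of 0.05. The methods were tested on simulated data. Recovery was required there only for changes far larger than those of the subunit genes. One-class SAM was written anew for genes with 3 values, at a false discovery rate of 0.05. All subunit genes could be named, with those of unadjusted p under 0.05 and the catalytic subunits in full, and of each factor list those past the threshold and the 2 of smallest p. The members, lists and tests were chosen with earlier results of these data known. No sequence was used here.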

Additional observations from a re-analysis of the deposited data

How the results depend on the processing

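Every ratio compares both strains on the same array, so the test against 0 is already a paired one, and no other pairing was available. Leaving out single replicates, centring, scaling, requiring all 4 arrays or removing values beyond 16 gave 0 subunit genes past an adjusted p of 0.05, and 1 gene changed sign (RPB3, from -0.18 to 0.12 over fits without single replicates). Means that did not pass moved more: 17 of 31 moved by over 1.5 times without 1 replicate, among them RPB2 (-0.57 without replicate 1, -0.046 without replicate 3), RET1 (-0.69 and -0.12), RPC34 (-0.021 and -0.39) and RPB4 (0.039 without replicate 1). Other settings moved the counts. With the 4 columns as 4 replicates, which counts 1 hybridisation as 2, 8 subunit genes were lower past the threshold (RPA43, RPA34, RPA135, RPA12, RPA49, RPO26, RPB8 and RPC17) while 1062 of all genes passed. With a dye term it was 2 lower of 650 in all, and without replicates 2 and 4 it was 1 higher and 1 lower of 353. Without replicate 3, 74 of all genes passed. Without replicates 2 and 4, these not significant means changed sign: RPA14 0.04, RPB10 0.0015, RPB9 -0.12, RPC10 -0.19, RPC11 0.070, RPC25 0.079 and RPO31 0.016.

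With replicates 2 and 4 turned, no gene of the whole table passed, and the median log2 ratio was 0.038 over the subunit genes, -0.010 for polymerase I, 0.020 for III, -0.24 for I and III and 0.057 for the common subunits. The means that changed sign were RET1 0.072, RPA14 0.29, RPB10 0.14, RPB2 0.038, RPB5 0.057, RPB7 0.056, RPB8 0.063, RPB9 -0.28, RPC10 -0.32, RPC11 0.26, RPC25 0.24, RPC37 0.18, RPC40 0.17, RPO26 0.020 and RPO31 0.17. Without replicates 2 and 4 the subunit median was -0.20, beside -0.06 over all genes, so it lay below that of all genes on replicates 1 and 3 alone. The main mean weighs 2 replicates with GCN2c in Cy5 against 1 in Cy3. With a dye term, which weighs the orientations alike, the subunit median was -0.37, beside -0.05 over all genes. The class medians were then -0.51 for polymerase I, -0.34 for III and 0.040 for II. The planned search for promoter motifs was not run because no promoter sequences were used here. No spot intensity was used, so signal over background was not judged.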
